A study of Homo sapiens with 17 samples.

Results

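Immediate early genes are switched on within minutes of a signal, without new protein synthesis, and many of them code for transcription factors. RNA polymerase II is loaded on such genes before the signal, stops shortly after the start, and is released into the gene body by the kinase P-TEFb, so pause release is a known control step for them. FOS and FOSB pair with JUN, JUNB or JUND to form the AP-1 factors. EGR1 is a zinc finger factor, MYC a growth regulator, ATF3 a stress-induced member of the ATF/CREB family, and IER2 and IER5 are nuclear proteins induced by growth factors.

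These 10 genes were followed in the human embryonic kidney line HEK293 by time-variant precision run-on sequencing. In this assay permeabilised cells extend their nascent RNA for a chosen time, here 0.5, 2, 8 or 32 min at 37 °C, and the rate at which signal accumulates at a position gives a pausing time. The 16 libraries used form 2 replicates of each run-on time in each of 2 buffers, 1 with sarkosyl, a detergent known to remove much of the protein bound to chromatin, and 1 without it. The authors deposited 4 tables, 1 per buffer and replicate, each fitted over 4 run-on times and called a series here. All cells were unstimulated as far as the labels say, and were grown in medium with serum that had been renewed on the day before permeabilisation. The labels do not say whether replicates came from separate cultures, so p-values measure the spread between these series only. The libraries of the 2 buffers stand in 2 separate blocks of sample numbers. Buffer therefore cannot be told apart from anything else that differs between the blocks. The members were the rows on the same strand inside the GENCODE v29 span (GRCh38) of FOS, FOSB, JUN, JUNB, JUND, EGR1, IER2, MYC, ATF3 and IER5, 10 of 15039 genes with a listed site.

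The 10 genes held 188 and 196 sites with sarkosyl (replicates 1 and 2, the order kept below) and 89 and 78 without. Together these were 381 distinct positions of 158141 in the tables. Every member had at least 1 site in every series. A series held between 41769 and 66089 sites in all, and the number of reads behind a site is unknown. The pausing time is the reciprocal of a fitted rate; no unit was given for it, and times are printed on the deposited scale. Among markers fixed for the line, VIM held 65 sites over the 4 series, NEFL 13 and INA 3, while NEFM and PAX2 held 0. Of the markers of other lineages, ALB, MYOD1 and INS held 0 sites, PTPRC held 1 and HBB, a globin gene, held 29. What lies behind the HBB sites was not tested.

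Promoters with a TATA motif are shown for 4 genes, to place the motif beside the first listed site of each. RefSeq (GRCh38.p14) gave a promoter for 9 of the 10 members, and 7 of these genes (all but ATF3 and IER2) had a site within 300 bp of the RefSeq start. The letters TATAA stood within 50 bases upstream of the start, on the sense strand, in 5 of these 7 promoters and in 4.74% of all 35116 promoters. Unlike the 7, the 35116 were not restricted to promoters with a listed site. The sequences run from 40 to 11 bases before the RefSeq start, 5′ to 3′ on the sense strand, with TATAA in capitals.
FOS, chr14:75278788-75278817, plus strand: cgcttgtTATAAaagcagtggctgcggcgc
FOSB, chr19:45467956-45467985, plus strand: gtcccgggcaTATAAatacaggctggcggg
JUND, chr19:18281633-18281662, minus strand: cgagccgaggcTATAAgagggcgcacaagt
IER5, chr1:181088660-181088689, plus strand: cgagaagcctaTATAAggcgcggggcagcc
The motif began 33 bases before the start in FOS, 30 in FOSB, and 29 in both JUND and IER5. The first listed site lay 45 bases after the RefSeq start in FOS and in IER5, 24 in FOSB and 38 in JUND. JUN and EGR1 had no TATAA in that window, and their first sites lay 42 and 34 bases after the start.

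The CArG box, the element bound by serum response factor, is shown for EGR1, the 1 promoter of the 7 that held it within 250 bases upstream; 1.16% of all promoters did. EGR1 held 2 boxes, beginning 105 and 83 bases before the start, given in capitals.
EGR1, chr5:138465364-138465393, plus strand: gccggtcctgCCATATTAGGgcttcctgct
EGR1, chr5:138465386-138465415, plus strand: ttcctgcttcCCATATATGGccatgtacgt
The letters TGACG, the core of the site bound by CREB and ATF factors, stood on either strand within 250 bases upstream in 6 of the 7 promoters (all but IER5), against 21.2% of all. GGGCGG, the core of the site bound by SP1, stood there on either strand in 4 of the 7, against 42.6% of all. These matches are descriptions of the letters in these windows, and the shares of all promoters were again not restricted to promoters with a listed site.

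The sites that follow are those on which the single-site results turn. Each is given with 10 bases on either side, and the capital marks the listed position.
FOS, chr14:75278863-75278883, plus strand, 5′ UTR: ctgagccggcGgccgcggcgc
JUN, chr1:58783173-58783193, minus strand, 5′ UTR: gaaactttccCtgtcaaaggc
JUN, chr1:58782865-58782885, minus strand, coding sequence: ctcgcccgacGtggggctgct
JUNB, chr19:12791520-12791540, plus strand, 5′ UTR: cagcagggagCtgggagctgg
JUND, chr19:18280730-18280750, minus strand, coding sequence: ggtgcccgacGtgccgagctt
EGR1, chr5:138465784-138465804, plus strand, coding sequence: tgcagctgatGtccccgctgc
EGR1, chr5:138469255-138469275, plus strand, 3′ UTR: gggatatgtgGtgtatatcct
IER2, chr19:13153093-13153113, plus strand, 5′ UTR: gtagagaggcGtgagcgagcc
IER2, chr19:13154799-13154819, plus strand, 3′ UTR: tgagggtctgCtttgtttacc
IER5, chr1:181088740-181088760, plus strand, 5′ UTR: ggagaggttaGtagagcagcg
Of 19 such windows read from the transcripts of the annotation, 10 had G at the listed position, 8 had C and 1 had T.

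The base at the listed position differed between the buffers in the member genes. Among member sites in exons outside chromosome 8, C made up 74.7% and 65.5% of the sarkosyl series (150 and 148 sites) and 38.4% and 15.4% of the sarkosyl-free series (73 and 65 sites). The share of G was 18.7% and 27.0% with sarkosyl, and 58.9% and 84.6% without. The groups did not overlap for either base. All exonic sites of the tables showed the same order, with 73.6% and 71.9% C with sarkosyl and 49.9% and 23.0% without. A and T together made up at most 7.43% of the member sites of a series. The base 1 position downstream was T in 38.5% and 34.0% of member sites with sarkosyl and in 52.1% and 60.0% without. Over all exonic sites it was T in 34.2%, 38.3%, 41.3% and 53.9% of the 4 series in the same order. Which bases were labelled in the run-on is not given in the sources used here.

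More of the listed sites lay in member genes with sarkosyl than without. The members took 0.387% and 0.411% of the sarkosyl tables and 0.135% and 0.187% of the sarkosyl-free tables, 0.399% ± 0.0167 against 0.161% ± 0.0368 (SD, n = 2 each), a ratio of 2.48. The groups did not overlap, with p = 0.33 by a two-sided exact permutation test, the smallest value that 2 series against 2 allow. Of sites in protein-coding genes, the members took 0.706% and 0.727% with sarkosyl and 0.219% and 0.321% without. Whether more polymerase, more reads per gene or a different calling of sites lies behind a larger number of sites cannot be told apart in these tables.

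**Figure D1:**
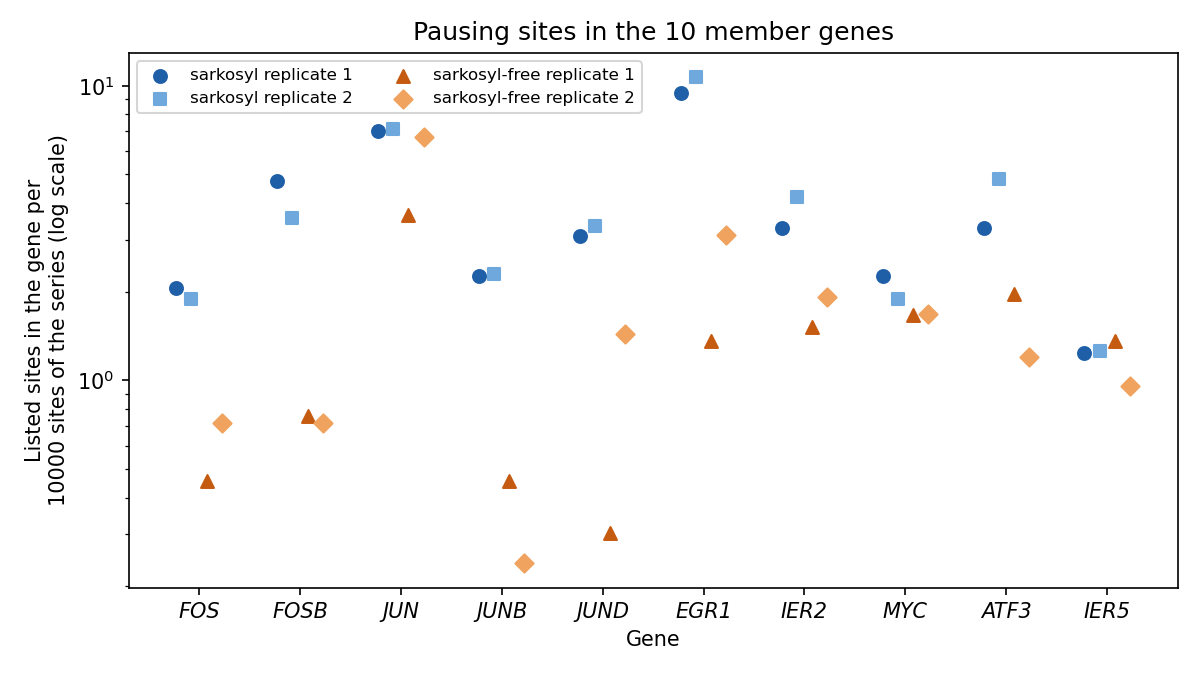
Listed sites per 10000 sites of the series (log axis) for each member gene; each point is 1 series. The 2 sarkosyl points lie above both sarkosyl-free points for every gene except IER5, and EGR1 reaches 9.47 and 10.7 with sarkosyl against 1.36 and 3.11 without.

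The excess was found in 9 of the 10 members, in all but IER5, when both sarkosyl shares of a gene were required to lie above both sarkosyl-free shares. None of the 10 had the reverse order. Of all 4204 genes with at least 10 sites, 25.4% had the first order and 1261 genes had the reverse. EGR1 carried the most sites with sarkosyl, 46 and 51, and 9 and 13 without. That placed EGR1 16th and 15th among 3744 protein-coding genes in the sarkosyl series, and 1025th and 267th in the sarkosyl-free series.

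Of the FOS-type subunits of AP-1, FOS held 10 and 9 sites with sarkosyl and 3 and 3 without. FOSB held 23 and 17 against 5 and 3, a ratio of 5.63 once set against the size of each table. Of the JUN-type subunits, JUNB, with 11 and 11 against 3 and 1 sites, had the largest such ratio of the 10 genes, 6.59. JUND held 15 and 16 sites against 2 and 6. JUN was the richest in sites without sarkosyl: 24 and 28, beside 34 and 34 with it, a ratio of 1.37. Per 10000 sites JUN held 7.0 and 7.13 with sarkosyl and 3.63 and 6.70 without, so the sarkosyl-free replicates differed from each other by more than replicate 2 did from either sarkosyl series.

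Outside AP-1 the ratio was 4.51 for EGR1, 2.56 for ATF3, 2.18 for IER2, 1.24 for MYC and 1.07 for IER5. ATF3 held 16 and 23 sites with sarkosyl and 13 and 5 without, and IER2 held 16 and 20 against 10 and 8. MYC (11 and 9 against 11 and 7) and IER5 (6 and 6 against 9 and 4) held similar raw numbers in both buffers.

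A per-gene limma fit of log2 sites per 10000 called FOSB, with a difference of 2.33 ± 0.328 (SE, Benjamini-Hochberg adjusted p = 0.0249). It was the 1 member among the genes called higher with sarkosyl, which were 0.0951% of the 4204 genes tested. JUNB (2.45, adjusted p = 0.0521) and EGR1 (2.24, adjusted p = 0.0519) did not pass the threshold of 0.05, and 7 of the 10 members had an unadjusted p under 0.05, against 901 of all 4204 genes. The FOSB call was lost when series were centred on their median gene (limma adjusted p = 0.0742). It was also lost when the spread was not made to trend with the mean (limma adjusted p = 0.115). No member was called in those 2 fits, which called 14 and 32 of the 4204 genes, against 25 in the full fit. Without sarkosyl-free replicate 1 or 2 the FOSB difference was 2.33 and 2.34. Without sarkosyl replicate 1 or 2 it was 2.13 and 2.53. Those fits leave 1 series in a buffer, and no call is read from them.

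The same order of buffers was seen just past the ends of the genes. The 2000 bp beyond the annotated ends held 121 and 123 sites on the same strand with sarkosyl and 32 and 30 without, that is 0.249% and 0.258% of a table against 0.0484% and 0.0718%. For all protein-coding genes the corresponding shares were 12.3% and 13.2% with sarkosyl and 10.9% and 13.7% without, which overlapped. EGR1 alone held 40 and 43 of these sites with sarkosyl and 2 and 3 without, and JUN held 24 and 25 against 14 and 13. FOSB and ATF3 held 0 in every series.

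Other immediate early genes had a like order of counts. Of 33 listed, 30 had a site, and together they took 0.282% and 0.287% of the sarkosyl tables and 0.138% and 0.144% of the sarkosyl-free ones. Both sarkosyl shares lay above both others in 11 of the 13 with enough sites, against 25.4% of all 4204 genes. They lay below in 0, against 1261 of the 4204. The most sites lay in MCL1, which protects against apoptosis, with 24 and 21 sites against 19 and 15. DUSP1, a phosphatase that switches off MAP kinases, held 15 and 13 against 8 and 11, and BTG2, an antiproliferative gene, held 11 and 13 against 6 and 4. KLF6, ID2 and DUSP6 followed with 33, 22 and 20 sites over the 4 series. Of 12 upstream regulators (among them SRF, ELK1, CREB1 and CDK9), 12 had a site, 4 had enough sites, and both sarkosyl shares lay above the others in 0 and below in 2. With 4 genes this cannot be told apart from the shares over all genes.

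The sites of the 381 positions were spread over the whole transcription unit. Coding sequence held 118 positions, the 5′ UTR 98, the 3′ UTR 98, introns 63 and exons of non-coding transcripts 4. JUN, a gene without introns, had 33 positions in the 5′ UTR, 18 in coding sequence and 32 in the 3′ UTR. EGR1 had 30 in coding sequence, 30 in the 3′ UTR and 15 in its intron, and ATF3 had 29 of 40 in introns. In both sarkosyl series 99 member positions were listed (52.7% and 50.5% of each list), where all sites gave 37.1% and 37.8%. In the sarkosyl-free series 36 recurred (40.4% and 46.2%), where all sites gave 21% and 33.3%. Across the recurring positions Spearman's rho of the times was 0.781 with sarkosyl and 0.570 without, as a description over 99 and 36 sites of shared genes; for all sites it was 0.691 and 0.475.

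**Figure D2:**
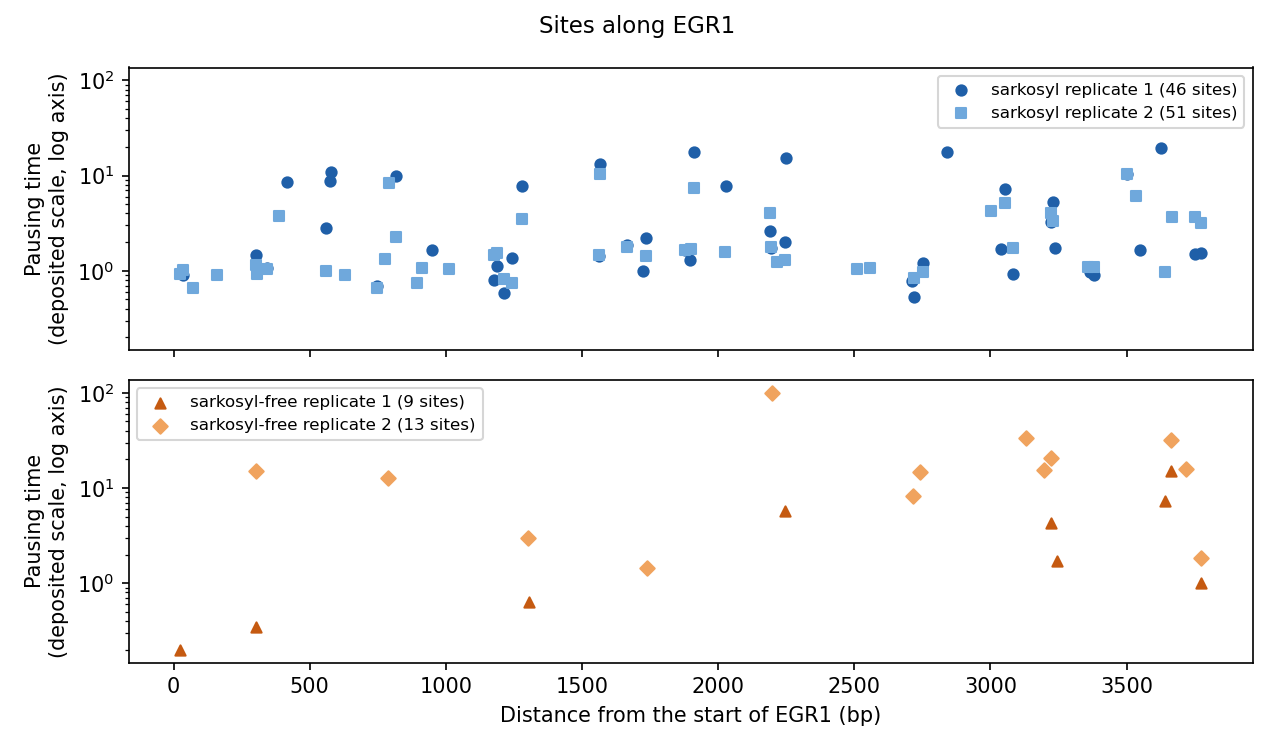
Pausing time (deposited scale, log axis) of each EGR1 site against its distance from the start of the gene in bp, with the sarkosyl series above and the sarkosyl-free series below. The 46 and 51 sarkosyl sites cover the length of the gene, and the 9 and 13 sarkosyl-free sites span a wider range of times.

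Over member sites the median time was 1.94 and 1.44 with sarkosyl, against 2.73 and 11.3 in the other buffer, where the series medians were 1.49, 1.34, 2.23 and 8.00. On the log2 scale the members lay above their series by 0.38 and 0.10 with sarkosyl and by 0.29 and 0.50 without; sites in all protein-coding genes lay above by 0.04, 0.03, 0.08 and 0.16. With only the more certain sites the member values were 0.33 and -0.041, and -0.036 and 0.19, so the position of the members depended on this choice. The member values of the buffers overlapped (difference -0.16, two-sided exact permutation test, p = 0.67). The median over all sites was longest in sarkosyl-free replicate 2, but not every gene had longer times there. JUND had a median of 3.31 in that series and 15.4 in sarkosyl-free replicate 1. Levels below are read relative to the series where buffers are compared. This choice matters: at positions listed in all 4 series the median log2 difference between buffers was 0.086 as deposited. Relative to the series it was 1.66.

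**Figure D3:**
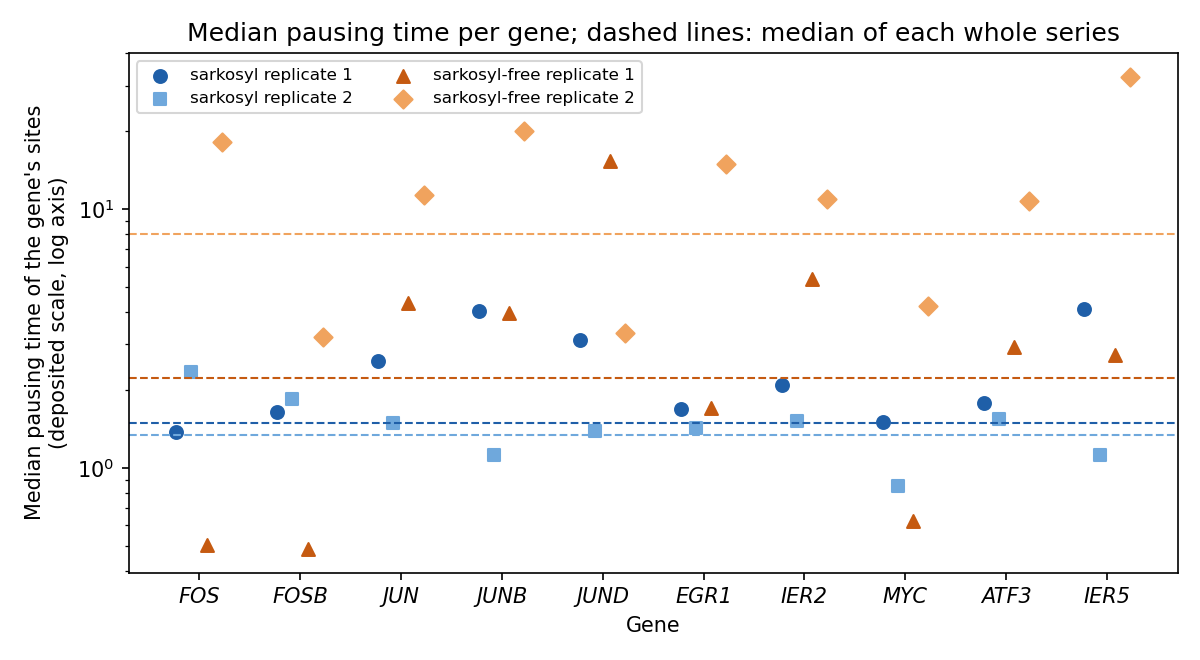
Median pausing time (deposited scale, log axis) of each member gene's sites in each series, with the median of all sites of a series as a dashed line in its colour. Within the sarkosyl series the gene medians run from 0.854 to 4.10, and in sarkosyl-free replicate 2 from 3.19 to 32.5.

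For the FOS-type subunits the gene medians without sarkosyl varied widely. FOS had medians of 1.37 and 2.35 with sarkosyl and 0.503 and 18.2 without, the latter each from 3 sites. FOSB had 1.64 and 1.84 with sarkosyl and 0.486 and 3.19 without; relative to their series these were 0.14, 0.46, -2.20 and -1.32 on the log2 scale. On that scale both sarkosyl values of FOSB lay above both sarkosyl-free values, but not on the deposited scale. The sarkosyl-free medians rest on 5 and 3 sites. All 5 lay within 300 bp of the start of some annotated transcript, among them a site 3095 bp from the gene's start. How many of all genes had this order was not counted.

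Among the JUN-type subunits JUN had medians of 2.59 and 1.49 with sarkosyl and 4.33 and 11.3 without, all above the median of their series. JUNB had 4.05 and 1.13 with sarkosyl and 3.95 in sarkosyl-free replicate 1, and its single site in replicate 2 stood 1.32 above the series median on the log2 scale. JUND had 3.13 and 1.38 against 15.4 and 3.31. Relative to the series, the replicates of either buffer differed more than the buffer means did for JUNB and JUND, and neither gene had enough sites for a test.

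EGR1, with medians of 1.69 and 1.43 with sarkosyl and 1.70 and 14.9 without, stayed within 0.90 of its series on the log2 scale. MYC had 1.50 and 0.854 against 0.623 and 4.24, and was below its series in 3 of 4. IER2 (2.08 and 1.52 against 5.38 and 10.9) and ATF3 (1.78 and 1.55 against 2.94 and 10.8) were above their series in all 4. IER5, with the fewest positions (17), had 4.10 and 1.12 against 2.74 and 32.5.

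Limma was run on the centred gene medians of all genes with at least 3 sites in every series. It called none of the 8 members tested (all but JUNB and JUND), and 0% of the 1769 genes, of which 165 had an unadjusted p under 0.05. FOSB had the largest difference of the 8, 2.06 ± 0.61 (SE), with unadjusted p = 0.014 and adjusted p = 0.435. It was 0.48 without centring. MYC had 1.05 ± 0.633, FOS 0.82 ± 1.13, IER5 -0.51 ± 0.863 and IER2 -0.50 ± 0.585. JUN, EGR1 and ATF3 lay between -0.26 and -0.12. None of the 6 testable genes among the other immediate early genes was called, and 1 of them had an unadjusted p under 0.05.

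Sites near a start had shorter times than body sites, pooled over the member genes. A start was that of any GENCODE transcript of the gene, so a near site can lie deep inside the gene. From any start, 25.5% and 23.0% of member sites with sarkosyl and 30.3% and 19.2% without were near. Counted from the gene's first start alone, the shares were 12.2% and 14.3%, and 14.6% and 8.97%. Times near that first start alone were not compared with body sites. Within 300 bp of an annotated start of the gene the median time was 1.30 and 1.01 with sarkosyl (48 and 45 sites) and 0.700 and 4.39 without (27 and 15 sites). Beyond 300 bp it was 2.15 and 1.53 with sarkosyl and 3.54 and 11.9 without. The log2 difference was -0.72 and -0.60 with sarkosyl and -2.34 and -1.44 without. For all protein-coding genes it was -0.43 and -0.30, and -0.48 and -0.53. The pooled sites do not come from the same genes throughout: JUN gave body sites only in every series. In sarkosyl-free replicate 1 FOSB and JUND gave near sites only, and in sarkosyl-free replicate 2 JUNB gave near sites only and EGR1 and IER2 body sites only. Over the 9, 9, 7 and 6 genes with both kinds of site in a series the difference was -0.68, -0.60, -2.19 and -0.35, against -0.40, -0.30, -0.50 and -0.40 for coding genes chosen in the same way. The buffers did not overlap in the pooled values (two-sided exact permutation test, p = 0.33), but did in these. The value of sarkosyl-free replicate 2, from 15 near sites, was 0.82 with a window of 100 bp, -0.16 without JUND and -0.53 as the median over genes.

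**Figure D4:**
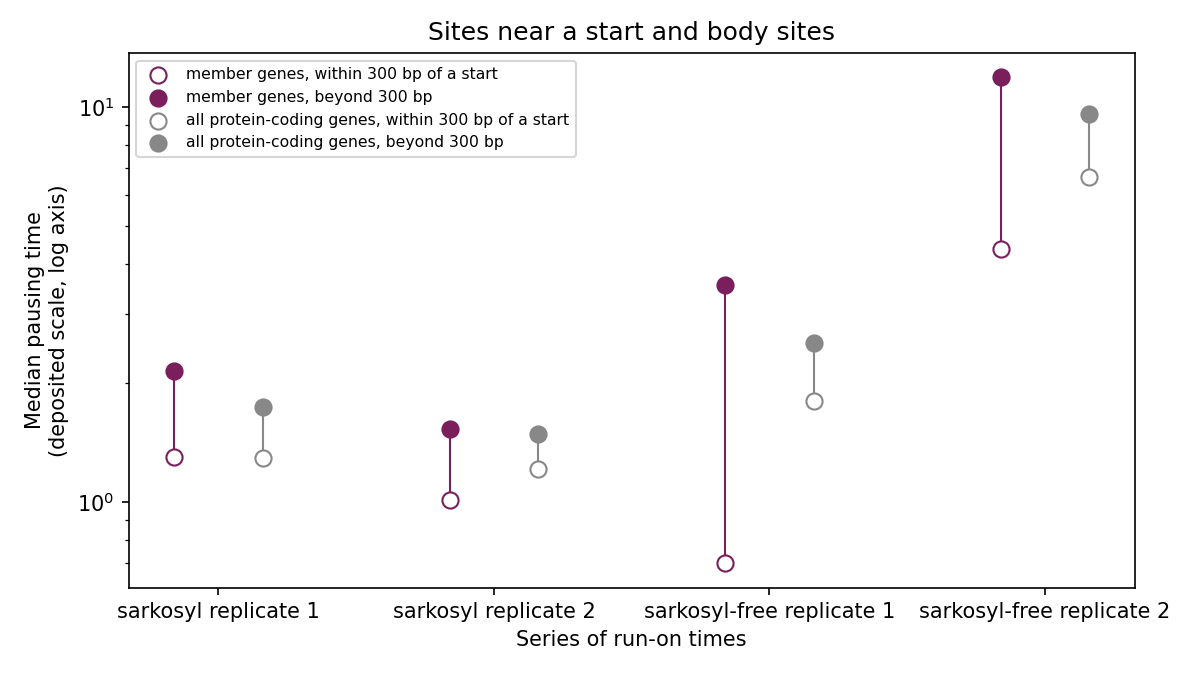
Median pausing time (deposited scale, log axis) of sites within 300 bp of a start (open) and beyond it (filled), for member genes (purple) and all protein-coding genes (grey), by series. Open points lie below filled points in all 4 series, and the purple pairs are further apart in the sarkosyl-free series.

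The share of C was larger in near than in body sites in both sarkosyl-free series, while the sarkosyl replicates stood in opposite orders. With sarkosyl C made up 80.0% of the member sites near a start and 72.7% of the body sites in replicate 1, and 56.8% and 68.5% in replicate 2. In the sarkosyl-free series C made up 57.1% and 36.4% of the member sites near a start, and 30.8% and 11.1% of the body sites. The near shares are 12 of 21 and 4 of 11 sites. The same shares over all coding genes were not counted. Member sites at G had longer times than those at C without sarkosyl, 5.05 against 1.25 in replicate 1 and 12.3 against 3.48 in replicate 2. The value of 3.48 comes from 10 sites. With sarkosyl the pairs were 2.78 against 1.83 and 1.37 against 1.46. All exonic sites of the tables had the same order without sarkosyl, 3.00 against 1.82 and 9.35 against 2.66. With sarkosyl their pairs were 1.49 against 1.36 and 1.37 against 1.28. Among G sites alone the difference between near and body sites was -0.54 and 0.58 on the log2 scale without sarkosyl, and -1.96 and -0.80 with it. Among C sites alone it was -2.41 and 0.83 without, and -0.27 and -0.61 with. The part of the base in the difference was not tested.

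Within single genes the near sites had the shorter median in 22 of 31 gene and series pairs with both kinds of site. By series this was 6 of 9, 7 of 9, 6 of 7 and 3 of 6 genes. For all coding genes with both kinds it was 60.1% and 62.6% of genes with sarkosyl, and 54.4% and 56.9% without. In MYC the pairs were 1.20 against 9.01 and 0.793 against 0.976 with sarkosyl, 0.578 against 1.58 and 4.39 against 3.99 without. JUNB had 0.871 against 5.35 and 0.833 against 1.23 with sarkosyl. JUND did not show the order: its near and body medians were 3.13 and 3.08, and 1.37 and 1.38, with sarkosyl. JUN entered with body sites only, since its single GENCODE start lies upstream of the RefSeq start; measured from the RefSeq start, its near and body medians were 1.03 and 3.64, and 1.41 and 1.55, with sarkosyl and 4.46 and 4.20, and 7.79 and 11.8, without.

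The share of member sites near a start was lower than in coding genes with sarkosyl. It was 25.5% and 23.0% with sarkosyl and 30.3% and 19.2% without, and for all coding genes 45.3% and 35.8%, and 24.2% and 24.2%. The member shares of the buffers overlapped (two-sided exact permutation test, p = 1). The fullest class of distance, more than 1000 and up to 5000 bp from a start, held 96 and 107 member sites with sarkosyl and 47 and 46 without.

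**Figure D5:**
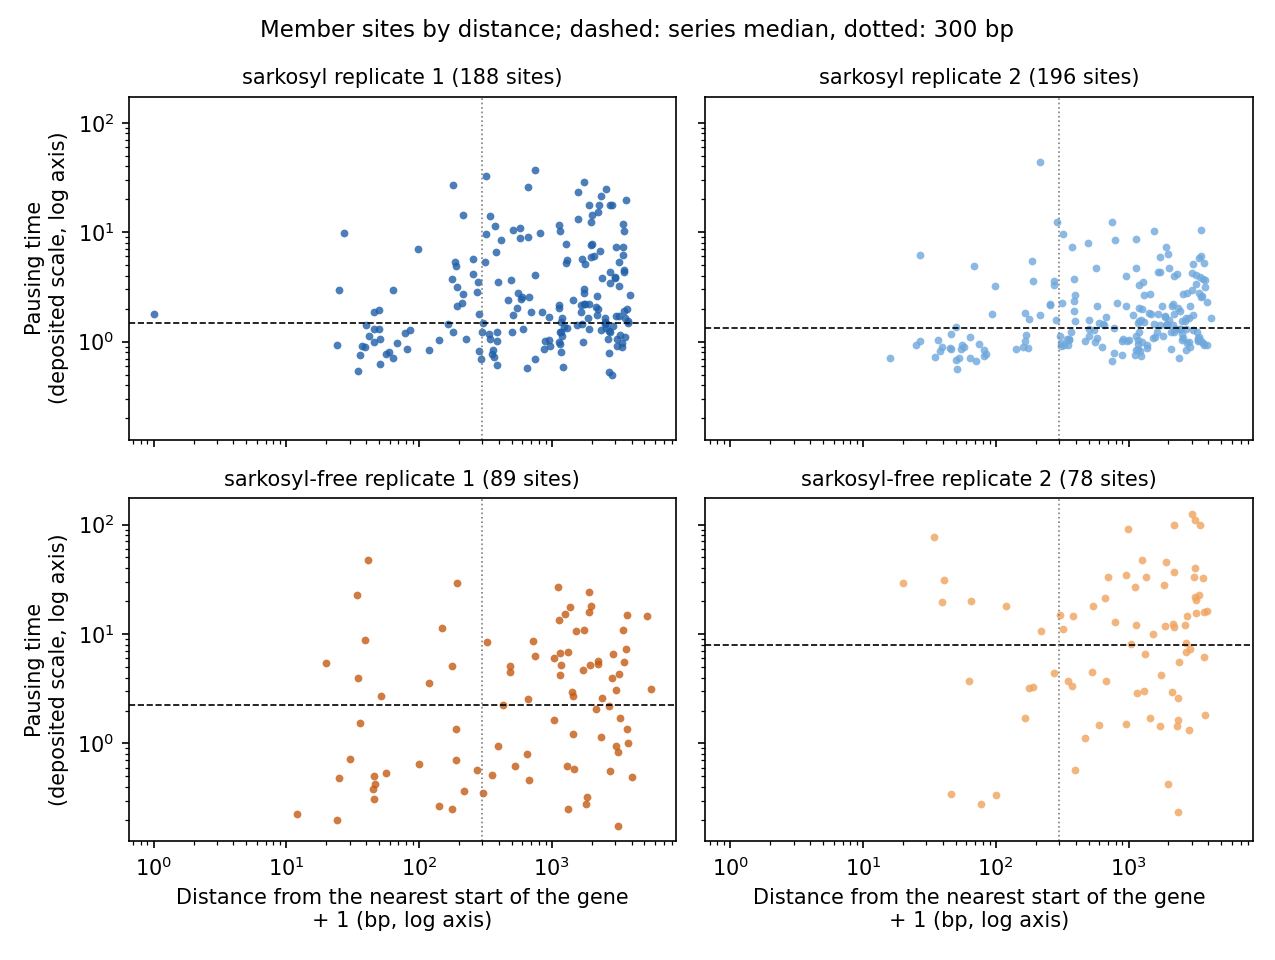
Pausing time (deposited scale, log axis) of every member site against its distance from the nearest start of its gene plus 1 (bp, log axis), 1 panel per series. The dashed line is the series median and the dotted line marks 300 bp; most sites lie to its right in every series.

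At single sites the comparison of buffers rests on 13 member positions listed in all 4 series (3.41% of the member positions, against 1.88% of all): 4 in JUN, 3 in MYC, 2 in EGR1, 2 in IER2, 1 in JUND and 1 in ATF3. Limma called none of them, and 0% of the 2967 positions tested, of which 689 had an unadjusted p under 0.05. On the deposited scale both sarkosyl times lay below both sarkosyl-free times in 4 of the 13, against 27.1% of all shared positions, and above in 3, against 29.2%. Centred on the shared positions, as in the fit, the members' counts were again 4 and 3, against 25.7% and 31.6% of all. Relative to all sites of the series they became 2 below and 8 above, against 9.27% and 51.9%, and the median difference over all shared positions was then 1.66 on the log2 scale, where it was 0.086 as deposited. The IER2 position chr19:13153103 and the JUN position chr1:58783183 lay below on each of the 3 scales.

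The largest difference among the 13 was in the 5′ UTR of IER2, at chr19:13153103. It had times of 0.983 and 0.755 with sarkosyl against 13.5 and 27.0 in the other buffer, so that the groups stood far apart. The centred log2 difference was -4.33 ± 0.763 (SE), with unadjusted p = 0.00145 and adjusted p = 0.155 by limma. The limma adjusted p was 0.042 after quantile normalization, in a fit that called 158 of all 2967 positions. Without sarkosyl-free replicate 1 or 2 the difference was -4.78 and -3.89. Without sarkosyl replicate 1 or 2 it was -4.56 and -4.11. Fits without a series leave 1 series in a buffer, and no call is read from them. Fitted with the more certain sites alone the difference was -2.77, with an adjusted p of 0.152 by limma.

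The other IER2 position, chr19:13154809 in the 3′ UTR, had times of 0.497 and 0.986 with sarkosyl and 4.00 and 1.32 without. In JUN the position chr1:58783183 in the 5′ UTR had 0.952 and 1.12 with sarkosyl and 4.20 and 12.0 without (difference -2.65 ± 0.818, limma adjusted p = 0.173). That difference was -1.08 (limma adjusted p = 0.563) with the more certain sites. It was -3.35 and -1.95 without sarkosyl-free replicate 1 and 2, and -2.57 and -2.73 without sarkosyl replicate 1 and 2. The JUN position chr1:58782875 in coding sequence had the reverse order, 2.42 and 2.72 against 1.23 and 1.70, and chr1:58782186 had 2.08 and 2.096 against 2.06 and 2.94. The fourth JUN position, chr1:58780903 in the 3′ UTR, had 6.17 and 5.81 against 10.99 and 22.7. Within 1 gene the positions thus stood in both orders.

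JUND had 1 such position, chr19:18280740 in coding sequence, with 4.93 and 3.60 against 1.37 and 3.25. EGR1 had chr5:138465794, 304 bp from its start, with 1.47 and 1.136 against 0.350 and 14.9, where the sarkosyl-free replicates enclosed the sarkosyl values. In the 3′ UTR, chr5:138469265 had 1.54 and 3.17 against 1.02 and 1.82. The ATF3 position, chr1:212612593 in an intron, had 1.99 and 5.21 against 1.34 and 6.21.

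At all 3 MYC positions sarkosyl-free replicate 1 had the shortest time. The position chr8:127736639 had 0.987 and 0.854 with sarkosyl against 0.313 and 0.346 (difference 1.62 ± 0.71, limma adjusted p = 0.241). The difference was 0.45 after quantile normalization, and 1.60 and 1.63 without sarkosyl-free replicate 1 and 2. At chr8:127736503 they were 2.82 and 3.57 against 0.578 and 4.39, and at chr8:127737266 2.56 and 1.68 against 0.464 and 3.75.

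FOS, FOSB, JUNB and IER5 had no position in all 4 series. The FOS position chr14:75278873, 45 bp from the nearest start, had 1.30 and 1.18 with sarkosyl, 0.503 in sarkosyl-free replicate 1 and was not listed in replicate 2; chr14:75279696 had 9.90 and 6.13 with sarkosyl only. FOSB had short times at chr19:45468046, 0.630 and 0.558 with sarkosyl. JUNB had 0.534 and 0.729 at chr19:12791530, 34 bp from its start, with 3.95 in sarkosyl-free replicate 1, and 5.29 and 5.41 at chr19:12791682, 186 bp from its start. In IER5 the position chr1:181088745 was listed only without sarkosyl, with 22.7 and 76.9, and chr1:181088750 had 0.887 in sarkosyl replicate 2 and 8.77 and 19.6 without sarkosyl. In FOS, chr14:75279363 had 1.01 and 2.35 with sarkosyl only. In FOSB, chr19:45468059 had 2.98 and 1.105 with sarkosyl only, and the intronic chr19:45469385 had 1.03 and 2.11 with sarkosyl and 1.51 in sarkosyl-free replicate 2. In JUNB, chr19:12791551 had 0.764 and 0.936 with sarkosyl and 0.534 in sarkosyl-free replicate 1, and in IER5 chr1:181088761 had 1.95 and 1.36 with sarkosyl only.

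The authors' own quartiles put these times in scale. For the FOS position 45 bp from a start, the quartiles of the rate correspond to times from 0.740 to 2.31 in sarkosyl replicate 1. Over the member sites of a series the upper quartile of the rate exceeded the lower by a median factor of 2.16 to 3.39, and over all sites by 2.22 to 3.44.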

How the data were processed

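Time-variant precision run-on libraries of HEK293 cells were used through 4 tables deposited by the authors, 1 per buffer and replicate. Per the file headers, a row gives a position, summary values of a fitted rate and a pausing time, which was the reciprocal of the median rate in every row. Per the submitters' processing notes, HISAT2 2.1.0, cutadapt 1.14, SAMtools and bedtools were used with hg38. The model and the site-calling rule are not given in the sources used here. No column of per-sample values was left unmapped (0). The remaining sample, labelled as a treatment, was not analysed here.

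Positions were read as 1-based: A or T stood at 3.67% to 6.79% of exonic positions read that way, against 15.8% or more when shifted by 1 base. Sites were assigned to GENCODE v29 genes. Times were compared as log2 values with limma 3.58.1 in R 4.3.3 (Benjamini-Hochberg, threshold 0.05; series centred on their median) and with two-sided exact permutation tests in Python 3.11.15. Per-gene site numbers were fitted with a pseudocount of 0.5 and a spread trending with the mean, added after the numbers were seen; the trend was chosen on simulated data. The fits were tested on simulated data.

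All member genes were named, with up to 3 sites each: those in all 4 series, or else in both series of a buffer, nearest the start. The members, lists and tests were chosen with earlier results of these data known. Bases and sequences on chromosome 8 were not used. Results for 2 genes of the lists and 1 promoter sequence are not reported here.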

Additional observations from a re-analysis of the deposited data

Results flagged for a closer look

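The pooled median of member sites more than 100 and up to 300 bp from a start lay on opposite sides of the series median in the 2 buffers. Their median was above the series median by 0.74 and 0.46 on the log2 scale with sarkosyl (22 and 17 sites) and stood at -1.19 and -1.08 without it (10 and 6 sites). For all coding genes the same bin gave 0.61 and 0.15, and -0.10 and -0.12. The sarkosyl-free values come from 5 and 6 genes, with 4 of 10 and 2 of 6 sites above the series median. Without FOSB they were -0.71 and -0.87. By gene, sarkosyl-free replicate 1 had -3.15 in FOSB, -2.13 in ATF3, -0.37 in MYC, 0.67 in IER2 and 1.51 in JUND. ATF3 gave 4 of the 10 sites, and values without ATF3 were not computed. In sarkosyl-free replicate 2 FOS (1.18) and ATF3 (0.43) stood above the series, and the other genes below. With sarkosyl ATF3 stood at -0.51 and 0.30. The genes thus did not share the order. The difference between the buffers was not tested.

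Among the 10 members, FOSB alone had a median above its series in both sarkosyl series, by 0.14 and 0.46. It stood below in both sarkosyl-free series, at -2.20 and -1.32. How many of all genes had this order was not counted. The sarkosyl-free medians rest on 5 and 3 sites. The limma fit of this difference had an adjusted p of 0.435.

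Sites on the strand opposite to the members lay inside their spans, outside the main measurement. There were 14 and 17 with sarkosyl and 9 and 4 without, above the limit of 3 that a count of 0 allows. That limit does not set the members apart from other genes: per 100 sites on the sense strand the members held 7.45 and 8.67, and 10.1 and 5.13, and all coding genes held 29.2 and 25.5, and 22.0 and 23.1. IER2 held 10 and 10 of them with sarkosyl and 2 and 2 without, and ATF3 held 4, 5, 5 and 1. The opposite-strand sites had median times of 0.894 and 1.01 with sarkosyl, against 2.90 and 9.18.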

How the results depend on the processing

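The larger share of sites in members with sarkosyl kept its direction in every alternative run, and so did the shorter times near a start with sarkosyl. The difference of member medians between buffers, -0.16, turned to 0.067 with the more certain sites only. The difference in the share near a start, -0.54 percentage points, turned to 1.46 with a 500 bp window and 1.47 from the gene's first start, and ran from -6.09 to 5.01 without single series. Near minus body with sarkosyl (-0.66) became -0.91 with a 100 bp window, -0.44 at C sites and -1.38 at G sites, and -0.72 to -0.55 without single genes or series. Without sarkosyl (-1.89) it became -0.71 with a 100 bp window (-2.25 and 0.82 by replicate), -0.79 at C sites (-2.41 and 0.83), 0.019 at G sites and -0.92 as the median over genes. The causes were not tested.

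Calls among the members moved as follows. For single sites (0 called), quantile normalization gave 1 (158 of all 2967 sites), and leaving out a series 0 to 5 (0 of all sites without either sarkosyl series, 1597 and 660 without sarkosyl-free replicate 1 and 2). For site numbers (1 called, 25 of all 4204 genes, 4 of them higher with sarkosyl), centring gave 0 (14 of all). Without a trend of the spread with the mean, 0 members were called (32 of all). Gene medians gave 0 members, and 0 of all genes, in every alternative that kept all 4 series.

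Replicate numbers are shared by the buffers, but same-numbered series did not deviate together (correlation 0.0134 over 2967 sites and -0.00974 over 4204 genes), so the numbers do not pair the series. With a replicate block 1 single site (IER2, of 161 called among 2967) and 7 site numbers (of 369 called among 4204 genes) were called; the block left the gene medians at 0, and the differences -0.16, 0.238 and -0.54 as they were.

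Uncalled differences of sites changed sign at JUN 58782186 (0.55 with quantile normalization) and JUN 58780903 (0.30 with more certain sites). Without single series they ran from -0.30 to 0.10 at JUN 58782186, -0.75 to 1.34 in ATF3, -0.27 to 2.53 at MYC 127736503, -0.65 to 2.24 at MYC 127737266 and -3.34 to 1.96 at EGR1 138465794. Gene medians changed sign without centring in MYC (-0.52) and FOS (-0.75), with quantile normalization in MYC (-0.088) and with means in JUN (0.053). Without single series they ran from -1.37 to 0.34 in IER5, -0.56 to 0.045 in JUN, -0.87 to 2.51 in FOS and -0.79 to 0.55 in EGR1, and the IER5 site number from -0.090 to 0.33. The number of reads is not known, and the number of series limits every test.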
